A study of Homo sapiens with 6 samples.

Results

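The genes described here encode 10 ligands by which tumor cells restrain or engage T cells, natural killer (NK) cells and macrophages: CD274, PDCD1LG2, CD276, CD47, LGALS9, PVR, NECTIN2, MICA, MICB and ULBP2. They were taken by symbol from a raw count table of 61533 gene rows, and each symbol matched 1 row. The cells were MDA-MB-231, an established human cell line from a triple-negative breast carcinoma, and 3 libraries of shKDM2B cells were compared with 3 of empty vector cells. The shKDM2B cells carry a short hairpin RNA against KDM2B, a histone demethylase that binds unmethylated CpG DNA. The empty vector cells, whose genotype is labelled WT, carry the vector alone, and both groups were grown in the same medium with 10% fetal bovine serum and taken at subconfluence. A single hairpin group was compared, and the labels do not say whether the cells were a pool or a clone. They call the 3 libraries of a group biological replicates without saying that these were separate cultures, so p-values measure the spread between these libraries. KDM2B itself had 14.9, 14.5 and 14.6 CPM (counts scaled to library size by TMM) in the shKDM2B libraries, against 57.3, 68.0 and 65.3 CPM in the empty vector libraries (log2 fold change -2.12, SE 0.08).

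Immune checkpoint ligands are surface or secreted proteins that bind receptors on immune cells. PD-L1 (gene CD274) and PD-L2 (PDCD1LG2) bind PD-1 and restrain T cells, and B7-H3 (CD276) belongs to the same B7 family. CD47 binds SIRP alpha on macrophages and restrains phagocytosis, and galectin-9 (LGALS9) binds TIM-3. CD155 (PVR) and CD112 (NECTIN2) bind the inhibitory receptor TIGIT and the activating receptor DNAM-1 on T and NK cells. MICA, MICB and ULBP2 are stress-induced ligands of NKG2D, an activating receptor of NK and CD8 T cells.

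Of the 10 ligand genes, 9 had enough counts to be tested. 5 were higher in shKDM2B cells (PDCD1LG2, NECTIN2, ULBP2, CD274 and MICA), 3 were lower (PVR, CD276 and MICB), CD47 did not pass the threshold and LGALS9 was nearly silent. The threshold was an adjusted p under 0.05 in edgeR's quasi-likelihood test over all 14071 genes with enough counts. The response was broad: 60.9% of all tested genes passed it, 30.5% higher and 30.4% lower, so the 8 of 9 called ligands stand against a high background. A change of at least 2-fold was seen for 2 of the 9, PDCD1LG2 and NECTIN2, where 12.0% of all tested genes reached it. The 2 groups did not overlap for 8 of the 9, and for 65.5% of all tested genes. The median log2 fold change was 0.38 over the 9 ligands and -0.01 over all tested genes. Log2 fold changes are shKDM2B over empty vector, with their standard error (SE).

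**Figure D1:**
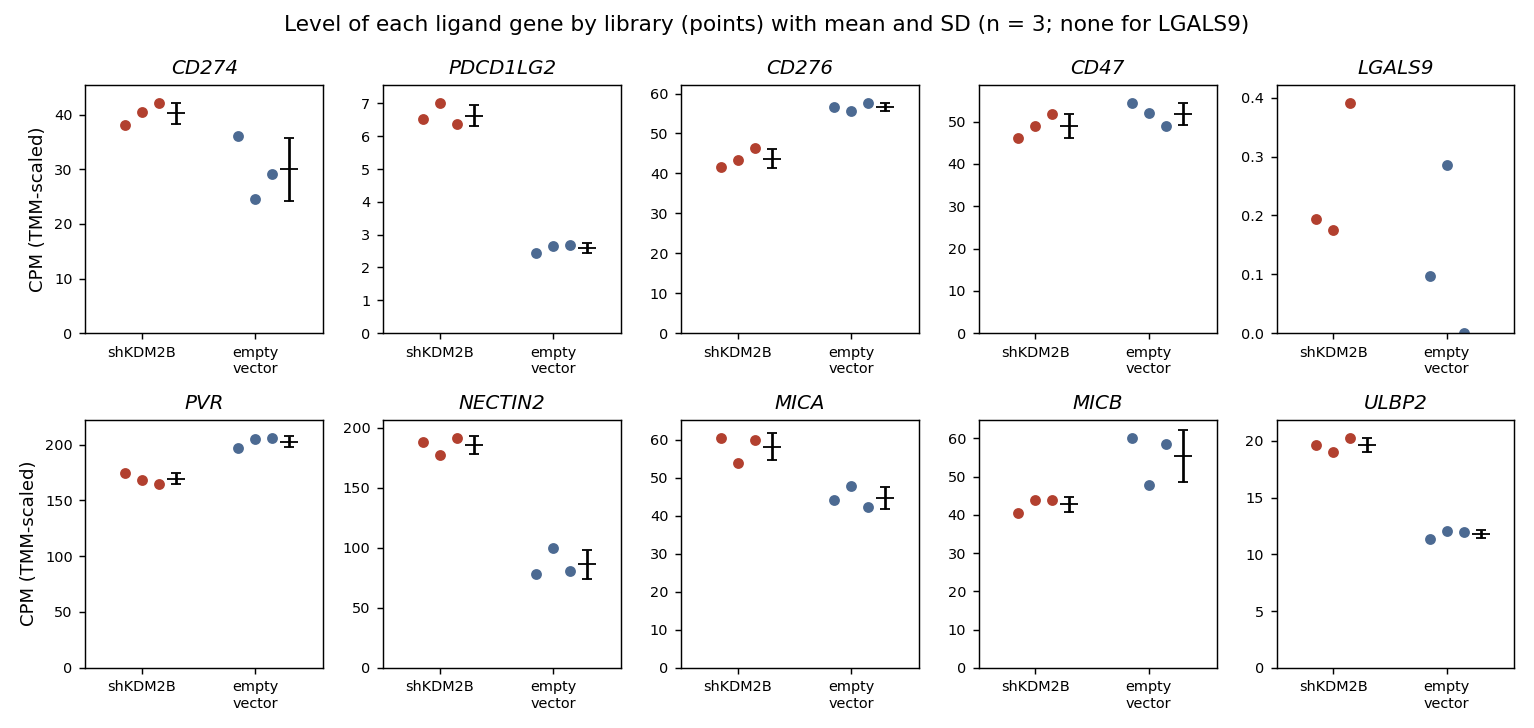
Level of each ligand gene in CPM in the 3 shKDM2B and the 3 empty vector libraries; points are libraries, and bars give the mean and SD. The groups lie apart for 8 genes, overlap for CD47, and LGALS9 is at most 0.391 CPM.

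The libraries held 10437732 to 15737951 counts in shKDM2B and 10190149 to 13635565 in empty vector. The line's markers KRT8, KRT18, VIM, CD44 and EGFR were abundant in both groups, and some of the list changed. VIM, the mesenchymal filament gene, fell to 406 ± 10.3 CPM in shKDM2B cells, against 1299 ± 52.3 CPM in empty vector cells (log2 fold change -1.68). The epithelial keratin genes KRT8 and KRT19 rose (log2 fold changes 0.49 and 1.03), with KRT19 at 73.7 ± 2.87 CPM in shKDM2B and 36.2 ± 8.33 CPM in empty vector cells (SD, n = 3 each). KRT18, the other keratin gene of the list, did not pass the threshold (log2 fold change 0.19, adjusted p 0.132). CD44 and EGFR were called higher (0.20 and 0.19), and ERBB2 did not pass (-0.03, adjusted p 0.787). ESR1 and PGR had at most 4 counts in any library. Of 19 leukocyte markers, 2 were measured, CD8A and CSF1R, and they went opposite ways. CD8A had 33, 64 and 82 counts in shKDM2B and 65, 74 and 106 in empty vector libraries (log2 fold change -0.56, adjusted p 0.0185). CSF1R had 34, 31 and 53 counts in shKDM2B and 8, 15 and 15 in empty vector libraries (log2 fold change 1.52, adjusted p 1.64e-04). All 19 together summed to 7.58 to 10.3 CPM in shKDM2B and 7.59 to 9.27 CPM in empty vector libraries. CD3D, CD3E, CD2, MS4A1, LYZ and TYROBP were at 0 in all 6 libraries, and PTPRC had at most 4 counts. The 9 fibroblast markers summed to 68.6 to 77.0 CPM in shKDM2B and 6.13 to 9.62 CPM in empty vector libraries, of which COL1A1 and PDGFRB made nearly all and the other 7 had at most 4 counts in any library. The 5 endothelial markers summed to 26.4 to 27.9 CPM in shKDM2B and 8.40 to 10.7 CPM in empty vector libraries, nearly all of it KDR. Mitochondrially encoded genes took 0.326 ± 0.141% of counts in shKDM2B and 0.111 ± 0.0375% in empty vector libraries (SD, n = 3 each). The part of these shifts in the ligand values was not tested. In bulk RNA, fewer cells of a type and less RNA per cell cannot be told apart.

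The promoter stretches of 3 ligand genes are shown: that of CD274 because it holds a pair of interferon-type elements, and those of MICA and MICB because they are near copies whose transcripts went opposite ways. They are RefSeq sequences (GRCh38.p14, plus strand) of the 250 bases before the annotated start, less the bases that GENCODE 29 places in an exon. In CD274 (chr9:5450292-5450502) the capitals mark matches, read on the opposite strand, to GAAA, any 2 bases and GAAA, the core of the interferon-stimulated response element. In MICA (chr6:31403345-31403578) and MICB (chr6:31497895-31498085) they mark matches to GAANNTTC, a core of the heat shock element.
CD274: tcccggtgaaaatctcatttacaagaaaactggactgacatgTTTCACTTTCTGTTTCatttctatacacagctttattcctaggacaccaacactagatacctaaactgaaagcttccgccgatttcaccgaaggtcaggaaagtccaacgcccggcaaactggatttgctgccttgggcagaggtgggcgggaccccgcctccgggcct
MICA: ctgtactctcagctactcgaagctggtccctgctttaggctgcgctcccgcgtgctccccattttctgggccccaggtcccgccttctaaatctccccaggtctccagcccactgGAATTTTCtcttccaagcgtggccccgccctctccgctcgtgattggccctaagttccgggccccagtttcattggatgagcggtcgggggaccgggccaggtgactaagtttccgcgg
MICB: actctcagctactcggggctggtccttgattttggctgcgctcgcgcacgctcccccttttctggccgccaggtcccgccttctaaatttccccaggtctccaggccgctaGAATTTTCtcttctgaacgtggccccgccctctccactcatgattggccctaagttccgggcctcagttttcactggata

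Promoter windows were found in the RefSeq table for 9 of the 10 ligands (10 windows, as CD276 has 2; PDCD1LG2 has no entry). Over the whole 250-base windows and both strands, CD274 was the only ligand with that interferon element core, which 3.02% of all 35116 windows hold, and its 2 matches overlap. CD274 was also the only one with TTCNNNGAA, the core of the gamma-activated site, which 6.57% of windows hold. GAANNTTC was found in MICA and MICB only, and 5.78% of windows hold it. The GC box GGGCGGGG was found in CD47, MICA, MICB, CD276 and NECTIN2, against 21.8% of windows. The kappa B core, which is GGGA, any 2 bases and TTCC (1.40% of windows), the E-box CACGTG (6.34%) and the cAMP response element TGACGTCA (1.65%) were in none. The MICA and MICB windows were identical at 209 of 246 aligned bases (85.0%). CpG counts ran from 1 in LGALS9 to 39 in CD47, and the median over all windows is 11. The ligands that were higher in shKDM2B cells had 16 (CD274), 17 (MICA), 18 (ULBP2) and 19 (NECTIN2) CpG. Those that were lower had 18 (MICB), 27 (PVR), and 29 and 23 (CD276). A match is a description of the sequence and not evidence of binding.

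Both ligands of PD-1 were higher in shKDM2B cells. CD274, which encodes PD-L1 (ENSG00000120217.14, GRCh38 chromosome 9 from 5450503 to 5470566, plus strand), had 38.2, 40.5 and 42.1 CPM in shKDM2B libraries, against 36.2, 24.7 and 29.3 CPM in empty vector libraries. All shKDM2B libraries lay above all empty vector ones, but the highest empty vector library came close to the lowest shKDM2B one. It rose 1.35-fold (log2 fold change 0.43, SE 0.11, adjusted p 0.00383). In a test against a change of 1.2-fold rather than none, the adjusted p of CD274 was 0.0585; 38.8% of all tested genes and 5 of the 9 ligand genes passed that test. PDCD1LG2, which encodes PD-L2 and starts 40.0 kb beyond the end of CD274 (chromosome 9 from 5510570 to 5571254, plus strand), is expressed at a far lower level. Its counts were 67, 80 and 98 in shKDM2B libraries and 25, 28 and 37 in empty vector libraries, or 6.51, 7.01 and 6.38 CPM against 2.43, 2.67 and 2.68 CPM. The groups were far apart, and it rose 2.54-fold (log2 fold change 1.35, SE 0.16, adjusted p 6.35e-06), the largest increase of the 9 tested.

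The PD-1 ligand genes did not change in proportion. The count ratio of PDCD1LG2 to CD274 within a library was 0.170, 0.173 and 0.151 in shKDM2B, against 0.0672, 0.108 and 0.0916 in empty vector, with no overlap. The mean log2 ratio was -2.60 ± 0.105 in shKDM2B and -3.52 ± 0.348 in empty vector (SD, n = 3 each), a difference of 0.92. The exact two-sided permutation test gave p = 0.1, the smallest that 3 against 3 libraries allow, also after adjustment over the 3 ratios computed. Per kilobase of annotated exon, CD274 still made 77.7 ± 1.24% of the PD-1 ligand RNA in shKDM2B cells and 86.7 ± 2.70% in empty vector cells (SD, n = 3 each).

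CD276 and CD47 did not follow the PD-1 ligands. CD276, the B7-H3 gene (chromosome 15 from 73683966 to 73714518, plus strand), had 41.5, 43.3 and 46.3 CPM in shKDM2B libraries and 56.7, 55.6 and 57.6 CPM in empty vector libraries. The groups did not overlap, and it fell 1.29-fold (log2 fold change -0.37, SE 0.06, adjusted p 1.68e-04). CD47 (chromosome 3 from 108043094 to 108091862, minus strand) had 46.1, 49.0 and 51.9 CPM in shKDM2B libraries and 54.4, 52.0 and 49.1 CPM in empty vector libraries. Its groups overlapped, and its change did not pass the threshold, at -0.07 on the log2 scale (SE 0.07, adjusted p 0.359) and a 95% interval of -0.22 to 0.07. On the linear scale that interval is 0.858-fold to 1.05-fold.

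**Figure D2:**
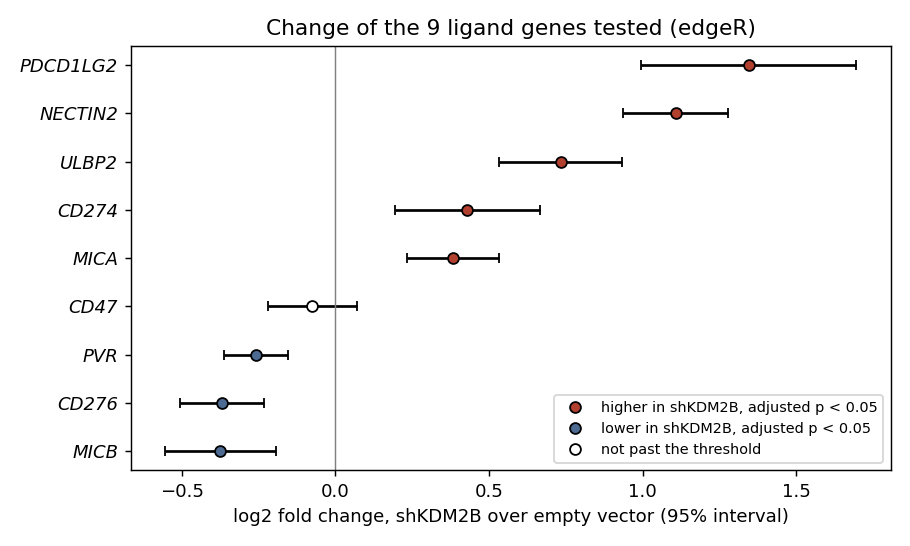
Log2 fold change, shKDM2B over empty vector, of the 9 ligand genes tested, with 95% intervals from edgeR; filled points passed an adjusted p of 0.05. The changes run from -0.37 for MICB to 1.35 for PDCD1LG2, and only the interval of CD47 holds 0.

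LGALS9 (chromosome 17 from 27629798 to 27649560, plus strand) had 2, 2 and 6 counts in shKDM2B libraries, against 1, 3 and 0 counts in empty vector libraries. It was not tested, and no fold is given at such counts. A count of 0 in empty vector replicate 3 allows up to 3 counts, or 0.217 CPM, for counting error only. LGALS9 also shares 17.9% of the 50-base words of its coding transcript with other genes, so its few reads are uncertain.

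The CD155 and CD112 genes moved apart. NECTIN2 (chromosome 19 from 44846175 to 44889228, plus strand) had 188, 177 and 192 CPM in shKDM2B libraries, against 78.2, 99.6 and 80.7 CPM in empty vector libraries. The lowest shKDM2B library was far above the highest empty vector one, and NECTIN2 rose 2.16-fold (log2 fold change 1.11, SE 0.08, adjusted p 4.72e-08). An antisense gene overlaps 3.42% of its exon bases, and no source used here says whether strand was used in counting. PVR, 183 kb away on the same strand (chromosome 19 from 44643798 to 44663583), had 174, 169 and 165 CPM in shKDM2B libraries, against 197, 205 and 206 CPM in empty vector libraries. It fell without overlap (log2 fold change -0.26, SE 0.05, adjusted p 3.73e-04), the smallest change called among the ligands. In the test against a 1.2-fold change its adjusted p was 0.467. The count ratio of PVR to NECTIN2 was 0.928, 0.952 and 0.862 in shKDM2B libraries, against 2.52, 2.05 and 2.55 in empty vector libraries. On the log2 scale the ratio was 1.37 lower in shKDM2B cells, with an exact two-sided permutation p of 0.1, the smallest possible. As both genes had changed without overlap and in opposite directions, that p was fixed by their values and adds no support. PVR thus made 40.2 ± 1.12% of the PVR and nectin RNA per kilobase in shKDM2B cells and 60.6 ± 1.42% in empty vector cells, and NECTIN2 made 41.3 ± 0.998% and 24.1 ± 2.44% (SD, n = 3 each).

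**Figure D3:**
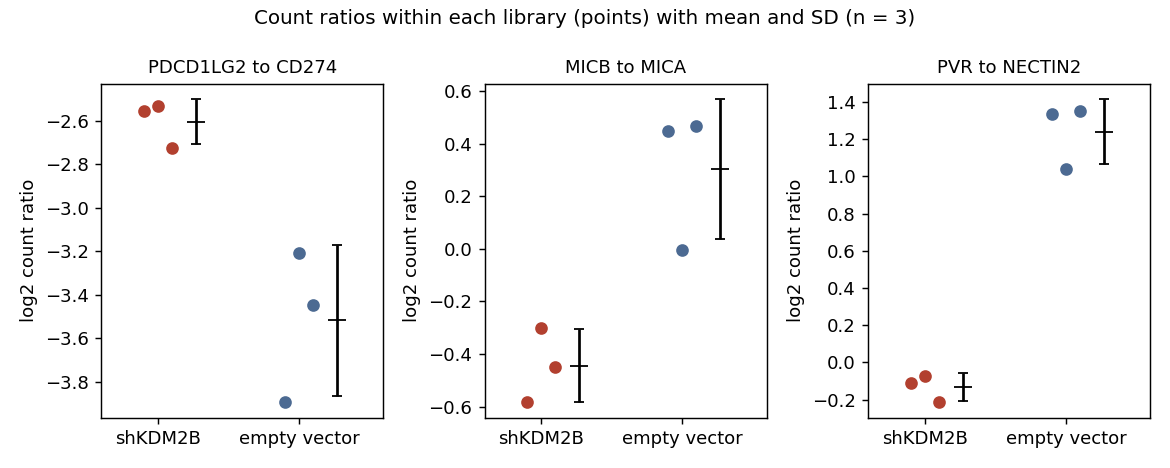
Log2 ratios of counts within each library for PDCD1LG2 to CD274, MICB to MICA and PVR to NECTIN2; points are libraries, shKDM2B left and empty vector right, with mean and SD. None of the 3 ratios overlaps between the groups, and the largest difference is -1.37 for PVR to NECTIN2. For MICB to MICA and PVR to NECTIN2 the gap follows from the opposite changes of the single genes.

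The NKG2D ligands changed in both directions. ULBP2 (chromosome 6 from 149942000 to 149949235, plus strand), a lipid-anchored ligand, had 19.6, 19.0 and 20.3 CPM in shKDM2B libraries, against 11.4, 12.1 and 11.9 CPM in empty vector libraries. It rose 1.66-fold (log2 fold change 0.73, SE 0.09, adjusted p 1.03e-05), and the spread within each group was small beside the gap. MICA (chromosome 6 from 31399784 to 31415315, plus strand), in the major histocompatibility complex, had 60.5, 54.0 and 60.0 CPM in shKDM2B libraries, against 44.1, 47.8 and 42.3 CPM in empty vector libraries. It rose 1.30-fold (log2 fold change 0.38, SE 0.07, adjusted p 2.86e-04). HCP5 overlaps 2.6% of the exon bases of MICA on the same strand, and its part in the MICA counts was not tested.

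MICB, 79.6 kb from MICA (chromosome 6 from 31494881 to 31511124, plus strand), went the other way. It had 40.4, 43.9 and 44.0 CPM in shKDM2B libraries, against 60.1, 47.7 and 58.4 CPM in empty vector libraries. The groups did not overlap, although empty vector replicate 2 lay near the shKDM2B libraries, and MICB fell 1.30-fold (log2 fold change -0.37, SE 0.08, adjusted p 0.00144). In the test against a 1.2-fold change its adjusted p was 0.0791. The count ratio of MICB to MICA was 0.669, 0.812 and 0.732 in shKDM2B, against 1.36, 0.998 and 1.38 in empty vector. The mean log2 ratio was 0.75 lower in shKDM2B cells (exact two-sided permutation p = 0.1, the smallest possible). MICB was lower and MICA higher without overlap, so that p was fixed by their values and adds no support. MICA shares 2.47% of the 50-base words of its coding transcript with MICB, and 2.84% of the words of MICB lie in other genes. These shares come from exact matches of a single reference coding transcript of each gene. Whether reads were exchanged between the 2 genes in these libraries was not tested.

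Of the 5 other NKG2D ligand genes, 4 were measured: 1 was higher, 3 were lower, and ULBP1 had at most 1 count. Over all tested genes, 30.5% were higher and 30.4% lower. ULBP3 had 18.0 ± 0.231 CPM in shKDM2B and 25.2 ± 2.87 CPM in empty vector cells (log2 fold change -0.49, adjusted p 5.27e-04). RAET1E had 6.07 ± 0.795 CPM in shKDM2B and 10.8 ± 0.844 CPM in empty vector cells (log2 fold change -0.81, adjusted p 1.53e-04; SD, n = 3 each). RAET1G and RAET1L, neighbours of ULBP2 named here for that place, had opposite signs. RAET1G had 54, 47 and 74 counts in shKDM2B and 13, 18 and 16 in empty vector libraries. RAET1L had 0, 4 and 0 counts in shKDM2B and 12, 13 and 23 in empty vector libraries. ULBP2 shares 29.4% of its 50-base words with RAET1L, so reads could have been split between them or lost. With the counts of RAET1L and RAET1G added, the log2 fold change of ULBP2 was 0.75, beside 0.73 for ULBP2 alone. RAET1G was higher and RAET1L lower in shKDM2B cells, so their changes offset each other in that sum. A sum with RAET1L alone was not made, so the part of reads shared with RAET1L was not tested.

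Summed per kilobase of exon, the 8 NKG2D ligand genes were at 77.7 ± 1.77 CPM per kb in shKDM2B cells and 78.3 ± 3.95 CPM per kb in empty vector cells (SD, n = 3 each). These ranges overlapped, at 75.9 to 79.5 in shKDM2B and 74.5 to 82.4 in empty vector libraries, while the make-up of the sum differed. MICA made 31.4 ± 1.43% of it in shKDM2B and 24.0 ± 2.51% in empty vector cells, and ULBP2 made 18.7 ± 0.169% and 11.2 ± 0.908%. MICB made 19.7 ± 1.02% in shKDM2B and 25.2 ± 2.06% in empty vector cells, and ULBP3 made 23.4 ± 0.799% and 32.4 ± 2.06%. The sum was formed after the members' values were known and is given without a test. It and the shares depend on the exon length used for each gene, which joins the exons of all its transcripts.

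**Figure D4:**
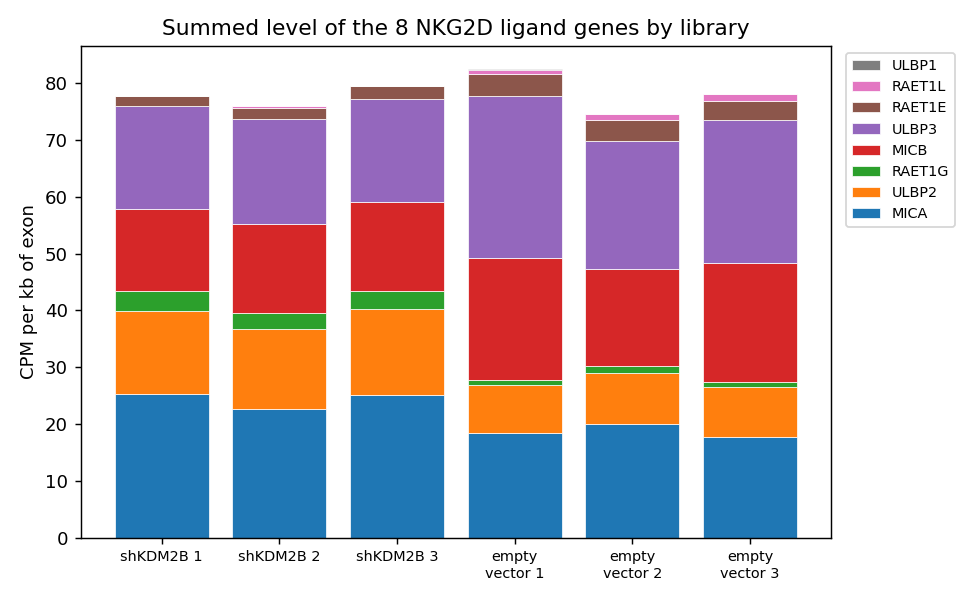
Stacked level, in CPM per kilobase of annotated exon, of the 8 NKG2D ligand genes in each library, shKDM2B left and empty vector right. The totals stay between 74.5 and 82.4 in all 6 libraries, while MICA and ULBP2 take more of the total in shKDM2B and MICB and ULBP3 take more in empty vector libraries.

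Levels per kilobase of annotated exon ranked the ligands differently in the 2 groups. That length joins the exons of all transcripts of a gene, so the order between genes depends on it. For CD47 it is 8225 bases, against 1285 in the coding transcript with the longest coding sequence. For MICA it is 2386 against 1386 bases, and for MICB 2798 against 2446. A ranking by transcript length was not made. In shKDM2B cells NECTIN2 (49.5 ± 1.99 CPM per kb) and PVR (48.1 ± 1.34) were highest and overlapped. MICA followed at 24.4 ± 1.51, then MICB at 15.3 ± 0.716 and ULBP2 at 14.6 ± 0.463, which overlapped. CD274 at 9.81 ± 0.480, CD276 at 7.89 ± 0.435, CD47 at 5.95 ± 0.353 and PDCD1LG2 at 2.81 ± 0.139 CPM per kb came next without overlap. In empty vector cells PVR stood alone at 57.5 ± 1.37 CPM per kb. NECTIN2 (23.0 ± 3.13), MICB (19.8 ± 2.40) and MICA (18.7 ± 1.18) overlapped with their neighbours in that order. CD276 was at 10.2 ± 0.176, and ULBP2 (8.75 ± 0.281), CD274 (7.31 ± 1.41) and CD47 (6.30 ± 0.321) again overlapped with their neighbours, above PDCD1LG2 at 1.10 ± 0.0591 CPM per kb (SD, n = 3 each). LGALS9 was last in both groups.

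The neighbouring genes, taken by position as the nearest tested protein-coding gene on each side, showed both directions too. Of 16 neighbours outside the ligands, 8 were higher, 3 lower and 5 not past the threshold. Over all tested genes, 30.5% were higher and 30.4% lower. BCAM, 24.8 kb from NECTIN2, had a log2 fold change of 2.15 (SE 0.12), while TOMM40, 1.34 kb on its other side, had -0.29 (SE 0.05). HLA-B, a class I antigen-presenting gene 42.6 kb from MICA, rose with a log2 fold change of 1.53 (SE 0.08), though class I genes are close copies and their reads could be split. DDX39B beside MICB had -0.02 (SE 0.11, adjusted p 0.875). PLGRKT, 12.6 kb from CD274, had -0.08 (SE 0.14, adjusted p 0.621), and RIC1, on the far side of PDCD1LG2, rose with 0.67 (SE 0.07). CEACAM19 overlaps PVR on the same strand over 3.44% of the exon bases of PVR. It was higher (adjusted p 0.00199) at 2.96 CPM in shKDM2B and 1.27 CPM in empty vector cells.

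The 11 lists of related genes held 130 genes, of which 88 were measured, 43 were higher, 25 lower and 20 not past the threshold. Beside these and the counts of each list stand the shares over all tested genes, 30.5% higher and 30.4% lower. Of 15 other B7 and butyrophilin family genes, 8 were measured, 3 higher and 3 lower, and the list's median log2 fold change was 0.18. NCR3LG1, which encodes B7-H6, a ligand of the NK receptor NKp30, had 9.01 ± 0.375 CPM in shKDM2B and 5.84 ± 1.47 CPM in empty vector cells (log2 fold change 0.64). BTN2A2 and BTN3A2, both butyrophilins, were at -0.92 and -0.35. The T cell costimulators CD80 and CD86 had at most 1 count in any library.

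Of 7 other nectins and nectin-like molecules, 3 were measured, 2 higher and 0 lower. NECTIN3, an adhesion partner of NECTIN2, had 109 ± 2.32 CPM in shKDM2B and 62.0 ± 3.89 CPM in empty vector cells (log2 fold change 0.81, SE 0.06). CADM4 was at 1.66. Among 11 other ligands of inhibitory receptors, 7 were measured, 3 higher and 2 lower. CD24, a ligand of the macrophage receptor Siglec-10, had 7.24 ± 0.455 CPM in shKDM2B and 14.7 ± 0.769 CPM in empty vector cells (log2 fold change -1.04, SE 0.11). The galectin genes LGALS3, LGALS8 and LGALS1 were at 0.79, 0.26 and -0.39. HLA-E, which encodes a ligand of the NK receptor NKG2A, had a log2 fold change of -0.09 (adjusted p 0.156) and was chosen after its values were seen.

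In the list of TNF family and adhesion ligands, 5 of 13 were measured, 3 higher and 1 lower. TNFSF9, the 4-1BB ligand that costimulates T cells, had 12.1 ± 0.999 CPM in shKDM2B and 4.39 ± 0.555 CPM in empty vector cells (log2 fold change 1.46, SE 0.14). CD58, the ligand of CD2, and the adhesion molecule ICAM1 were at 0.73 and 0.44. CD59, which protects cells from complement, fell to 225 ± 1.41 CPM in shKDM2B cells, against 366 ± 7.11 CPM in empty vector cells (log2 fold change -0.70).

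Genes that act on PD-L1 were followed by 2 lists. Of 14 genes of interferon-gamma signalling towards PD-L1, 13 were measured, 9 higher, 1 lower and 3 not past the threshold, and the list's median log2 fold change was 0.55. The receptor chains IFNGR1 and IFNGR2 were at 0.96 and 0.67, the kinase JAK1 at 0.95 and the transcription factor IRF1, which binds the CD274 promoter, at 0.63. JAK1 had 352 ± 7.23 CPM in shKDM2B and 183 ± 5.85 CPM in empty vector cells. SOCS3 was at 0.56 and PIAS1, the gene called lower, at -0.34, both named after their values were seen. The counts and median take no account of whether a gene promotes or restrains the pathway, and signalling itself was not measured. All 16 genes of PD-L1 protein stability and glycosylation were measured, 6 higher and 4 lower, and 6 did not pass; the list's median was 0.09. CMTM4, which protects PD-L1 from degradation, fell to 35.0 ± 2.17 CPM in shKDM2B cells, against 102 ± 8.38 CPM in empty vector cells (log2 fold change -1.54, SE 0.07). Its paralog CMTM6, chosen after its values were seen, was at 0.06 (adjusted p 0.285). GSK3B, a kinase that marks PD-L1 for degradation, and STT3B, a subunit of the glycosylation complex, were at 0.80 and 0.71, and CMTM3 was at 1.02.

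Among 10 genes of CD47 maturation and phagocytosis signals, 8 were measured, 4 higher and 3 lower (median log2 fold change 0.26). QPCTL, the Golgi glutaminyl cyclase that modifies the SIRP alpha binding site of CD47, had 12.6 ± 0.642 CPM in shKDM2B and 28.4 ± 3.72 CPM in empty vector cells (log2 fold change -1.16, SE 0.11). Its secreted paralog QPCT was at 1.85. LRP1, a receptor of the eat-me signal calreticulin, and MFGE8, a bridging protein of phagocytosis, were both higher. LRP1 had 165 ± 11.5 CPM in shKDM2B and 58.5 ± 4.86 CPM in empty vector cells, and the log2 fold change of MFGE8 was 0.67.

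Shedding proteases and their inhibitors were higher for 8 of 9 measured genes of 10 and lower for 1, and the list's median log2 fold change was 1.14 beside -0.01 over all tested genes. MMP14 and ADAM17, which cleave membrane proteins including MICA, were at 1.19 (SE 0.05) and 1.14 (SE 0.05), and the inhibitors TIMP1 and TIMP2 at 1.35 and 1.14. ADAM17 had 154 ± 2.07 CPM in shKDM2B and 70.1 ± 2.07 CPM in empty vector cells. Of 13 stress regulators of NKG2D ligands, 2 were higher and 7 lower (median -0.20). HSF1, the heat shock factor, had 67.6 ± 2.83 CPM in shKDM2B and 199 ± 4.58 CPM in empty vector cells (log2 fold change -1.55, SE 0.05). ATF4, MYC and XBP1 were at -1.77, -0.88 and -0.66. Of the 16 receptor genes for these ligands, 2 were measured, and both rose; they were chosen after their values were seen. SIRPA, which encodes the CD47 receptor SIRP alpha, had 37, 39 and 39 counts in shKDM2B and 11, 12 and 10 in empty vector libraries (log2 fold change 1.70, SE 0.28). CD226, which encodes DNAM-1, had 21, 14 and 22 counts in shKDM2B and 9, 9 and 8 in empty vector libraries (log2 fold change 1.02, SE 0.34). PDCD1 had at most 4 counts, and KLRK1, CTLA4 and SIRPG had 0 in all libraries.

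**Figure D5:**
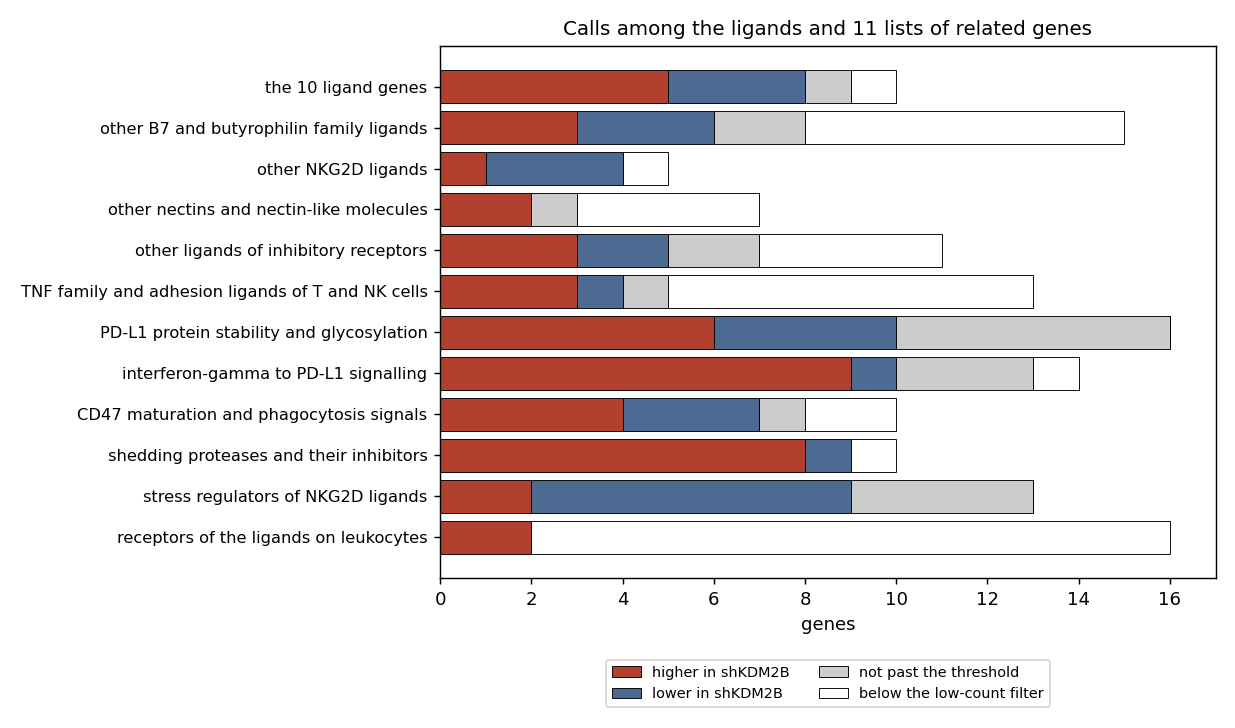
Number of genes called higher or lower in shKDM2B, not past the threshold, or below the low-count filter, for the 10 ligand genes and 11 lists of related genes. The list of shedding proteases and inhibitors has 8 higher and 1 lower, and the stress regulators have 2 higher and 7 lower. Over all tested genes, 30.5% were called higher and 30.4% lower.

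The genes whose values over the 6 libraries lay closest to a ligand were sought for PDCD1LG2, with the largest increase, and for MICB, whose decrease was within the standard error of that of CD276. The distance was the root mean square difference of log2 CPM centred on each gene's empty vector mean. Closest to PDCD1LG2 were IL7R (0.0430), ASAH1 (0.0452) and ENO2 (0.0570), with log2 fold changes of 1.34, 1.29 and 1.32. Closest to MICB were CHRAC1 (0.0360), POM121C (0.0368) and CAV1 (0.0374), with log2 fold changes of -0.39, -0.39 and -0.35. As the distance picks genes with a like change, their log2 fold changes had to lie near those of the ligands.

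The hexamer CGACAC was looked for in the 3' UTRs of the ligand genes because earlier results of these data had singled it out. It occurs in 3 of the 5 coding transcripts of NECTIN2, which was higher in shKDM2B cells, and in none of those of the other 9 genes. Of the 494 tested genes that hold it in the 3' UTR of their main coding transcript, 52.0% were called lower, and 30.6% of those without it. These shares come from the same data that singled the hexamer out, so they give it no independent support. They also use the main coding transcript only, while the ligand genes were searched over all coding transcripts.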

How the data were processed

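Total RNA of 3 shKDM2B and 3 empty vector libraries, depleted of ribosomal RNA per the labels' protocols, was sequenced, and the authors deposited 1 table of raw counts per gene. Per the submitters' processing notes, the tools were STAR, Trim Galore, limma, edgeR, DESeq2 and featureCounts with GRCh38 (hg38); no source used here gives their versions, roles or strand setting. Columns named EV and sh79 were taken as empty vector and shKDM2B. Of 61533 rows, 61369 matched a gene name and 58356 matched GENCODE 29, which gave coordinates and exon lengths. The exon length of a gene joins the exons of all its transcripts.

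Genes were kept by edgeR's filterByExpr (minimum count 10, minimum total 15), which left 14071. Counts were scaled by TMM and tested with edgeR 4.0.16 (R 4.3.3) by the robust quasi-likelihood test, with Benjamini-Hochberg adjustment over all genes tested and a threshold of 0.05. The steps were tested on simulated data with 200 changed genes. The data themselves had 8571 called genes, so that test does not cover so broad a response. Alternatives used DESeq2 1.42.0, limma 3.58.1, other scalings and filters, paralog counts added, a test against a 1.2-fold change, a replicate block and each library left out. Depth was 10190149 to 15737951 counts, at which 3 counts are 0.195 to 0.292 CPM; such floors cover counting error only. No 2 libraries of a group agreed within sampling noise (chi-square over its degrees of freedom 1.89 to 8.74). The members, lists and tests were chosen with earlier results of these data known. Named genes are the members, KDM2B, up to 4 called genes of each list with a mean of at least 5 CPM by size of change, list genes below the filter, and the 3 genes nearest in pattern to 2 members; positional neighbours and any others are identified as such.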

Additional observations from a re-analysis of the deposited data

How the results depend on the processing

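The same 8 ligand genes passed the threshold under every alternative but one: in the test against a 1.2-fold change 5 did, beside 38.8% of all tested genes, and CD274, PVR and MICB did not (adjusted p 0.0585, 0.467 and 0.0791). Over the whole table, 8876 of 35607 genes passed without a filter beyond 1 read. With shKDM2B replicate 3 left out 7566 of 14409 passed, and with empty vector replicate 2 left out 9128 of 14635. No alternative reversed a direction, and CD47 passed under none. Leaving out each library in turn, the log2 fold change of CD274 ran between 0.31 and 0.56, that of NECTIN2 between 1.03 and 1.22, and that of MICB between -0.47 and -0.33. Of the 88 related genes measured, 54 passed in the 1.2-fold test and 68 in the main analysis, beside 38.8% and 60.9% of all tested genes. The median of all genes moved most, by -0.0267 (log2), without a filter beyond 1 read, and by -0.0108 with upper-quartile scaling. MICB fell more than CD276 in the main analysis, but less in limma-voom, with the replicate block, and without empty vector replicate 1 or 3 or shKDM2B replicate 3. Whether replicate numbers pair the libraries is not settled. Deviations from the group means correlated at 0.118, -0.0258 and 0.0751 for the same numbers, and at -0.135 to 0.0838 for different numbers. The value of 0.118 was the highest of all, and 3 libraries a group are too few to exclude pairing. With the replicate number as a block, 8 ligand genes and 69 related genes passed, beside 8479 of all 14071 tested genes. The depth leaves LGALS9 untested.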
